A study of Mus musculus with 6 samples.

Results

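The 10 genes described here, Pecam1, Cdh5, Plvap, Emcn, Eng, Vwf, Egfl7, Tie1, Selp and Sele, mark vascular endothelium, and were taken by symbol from a table of 33924 genes measured in RPE/choroid. All 10 were in the table, and all 10 had a mean above 0, as had 26681 of the 33924 genes. RPE/choroid holds the retinal pigment epithelium, a single pigmented sheet that supports the photoreceptors, and the choroid, the vascular coat on its outer side. The tissue came from C57BL/6J mice labelled male, with both eyes of a mouse pooled, in 3 Young libraries (labelled 1 to 2 months) and 3 Aged libraries (labelled 20 to 24 months in the titles and 22 to 24 months in the time label). The mice carried no transgene or treatment according to the labels. The methods of the study give both sexes and an older range for the young mice, so age and sex are uncertain.

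The table analysed here gives 1 mean per gene over the 6 libraries, in normalized counts (baseMean). Both ages enter this mean, and no comparison between Young and Aged was made. Error between mice is therefore not known for any value below, and a gene may owe its level to some of the libraries only. In bulk tissue a low mean cannot be told apart between few endothelial cells and little RNA per cell.

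Endothelial cells line all blood vessels. The capillaries of the choroid, the choriocapillaris, are fenestrated and supply the photoreceptors and RPE from outside, whereas the capillaries of the neural retina form a tight barrier. The cells hold to each other through junction proteins, carry receptors for vascular growth factors, store clotting factors, and put selectins on their surface to catch leukocytes when they are activated.

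The scale of the values was examined first. The values under 0.2 took only 6 different sizes, starting at 0.148 normalized counts, over 1338 genes. Of the 2165 values from 0.2 to under 0.9, 2165 were sums of these 6 steps to within 1e-06, against 0.143% of evenly spaced numbers over the same range. The number of steps equals that of the libraries, as it would if each step were 1 count in 1 library, and the largest step was 1.35 times the smallest. Among 13827 protein-coding genes with a baseMean of at least 10, baseMean rose with transcript length (Spearman's rank correlation 0.294 across genes, which are not independent replicates). After division by length the correlation was -0.105. Levels of different genes are therefore compared per kb of the longest protein-coding transcript, and a baseMean, a percentile by baseMean or a share of summed baseMean is given as a count, which is larger for longer transcripts at the same level. The study methods name a length-scaled unit (TPM) as the step before the normalized counts, which were made from it by total count scaling. Whether length came back in with that scaling was not stated. Were length still removed, the values without division would be the ones to read. By these the order was Vwf, Emcn, Egfl7, Plvap, Tie1, Eng, Pecam1, Cdh5, Sele and Selp, with the last 4 genes the same as per kb.

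The 10 genes fell into a group of 8 and a pair, both selectins, far below. The 8 lay between 256.6 and 1920.6 normalized counts per kb, and Sele and Selp at 20.5 and 11.9. The range of the 8 was 7.49-fold, and it was 4.87-fold by all exons together and 4.19-fold with no division by length. The lowest of the 8, Cdh5, was 12.5-fold above Sele per kb, and the top gene, Egfl7, 162-fold above Selp. The median of the 10 genes was 499.6 per kb, against 155 for the 13827 protein-coding genes with a baseMean of at least 10, and 8 of the 10 were above that median. Their summed baseMean of 19066 was 0.0993% of the 19192071 of the table.

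**Figure D1:**
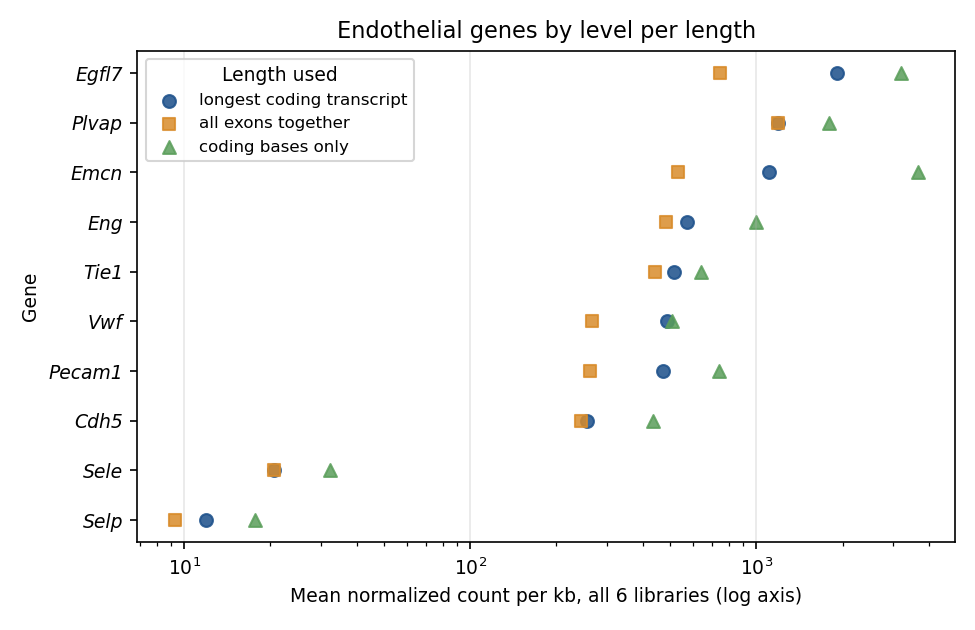
Mean normalized count per kb over all 6 libraries (log axis) for each of the 10 genes, with the length taken from the longest coding transcript (circles), all exons together (squares) or coding bases only (triangles). No error over mice is known. Under each length 8 genes lie above 100 per kb, and Sele and Selp lie below.

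Egfl7 had the highest level per kb of the longest coding transcript, and was the second by all exons together, at 746.04, and by coding bases, at 3203. It encodes a small secreted protein of endothelial cells that takes part in vessel formation. Its baseMean was 2671.6, or 1920.6 per kb, above 96.9% of protein-coding genes of at least 10. The gene lies on chromosome 2 at 26580014 to 26593120 of the plus strand (GRCm38) and is annotated with 19 transcripts, 12 of them coding. Of its 31-base words, a share of 0.925 occurs in no other gene, and 264 exon bases are shared with Gm20532, annotated as protein-coding on the same strand that was listed at 0. At its far end 64 bases overlap Agpat2 on the opposite strand (baseMean 389).

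Egfl7 also hosts miR-126a, an endothelial miRNA, whose 3p arm lies at chr2:26591402-26591423 of the plus strand. The miRNA falls in an intron of 8 of the Egfl7 transcripts and in an exon of 1. Its gene is in the table under the older symbol Mir126 and was listed at 0, and no level of the mature miRNA can be given. The mature sequence (RefSeq, GRCm38.p6) is shown because the host led the 10 genes per kb of the longest coding transcript, with the seed, bases 2 to 8, in capitals.
mmu-miR-126a-3p: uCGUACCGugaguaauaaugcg

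Plvap and Emcn followed. Plvap forms the diaphragms that span the openings of fenestrated capillaries, and is known for the choriocapillaris. Its baseMean was 2359, or 1187 per kb. It has a single annotated transcript of 6 exons on chromosome 8 at 71497765 to 71511752 (minus strand), all of its 31-base words are its own, and its 1819-base overlap with Gtpbp3 on the other strand touches no exon of both. Emcn, a sialomucin of the endothelial surface, lies alone on chromosome 3 at 137341067 to 137432185, with no protein-coding gene within 100 kb. Its baseMean was 2866, or 1107 per kb, which is 0.933 of the Plvap level. This order depended on the length used: by coding bases only, Emcn was the highest of the 10 genes at 3660 per kb and Plvap the third at 1795, and by all exons together Plvap was the highest at 1187 and Emcn the third at 529.8.

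The next 4 genes lay close together per kb of the longest coding transcript. By all exons together they ran from 482 (Eng) to 261 (Pecam1), and by coding bases from 996 (Eng) to 508 (Vwf). Eng, a co-receptor for TGF-beta family ligands, had a baseMean of 1951 (570.1 per kb). Tie1, a receptor tyrosine kinase of endothelium, had 2175 (513.6 per kb). Vwf, the large glycoprotein that tethers platelets to injured vessels and is stored in endothelial granules, had the highest baseMean of all 10 genes, 4290.1, and held 22.5% of their sum. Per kb of its transcript of 8834 bases and 52 exons it stood at 485.6. Pecam1, an adhesion molecule at endothelial junctions that leukocytes and platelets carry too, had 1628 (473 per kb). Vwf and Pecam1 differed by 1.03-fold per kb, and by coding bases only Pecam1 was the higher, at 741 against 508. Without values per mouse none of the neighbours in this order can be said to differ.

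Cdh5, the cadherin of endothelial adherens junctions, had the lowest level of the 8, with a baseMean of 1025, or 256.6 per kb, above 65.2% of protein-coding genes of at least 10. All of its 31-base words were its own. It lies on chromosome 8 at 104101625 to 104144511, and its antisense neighbour Gm29682 shares no exon base with it. Its partner gene Ctnnb1, the catenin that cadherins bind in many cell types, stood at 7605 per kb, and the cadherin Cdh2 at 128.

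**Figure D2:**
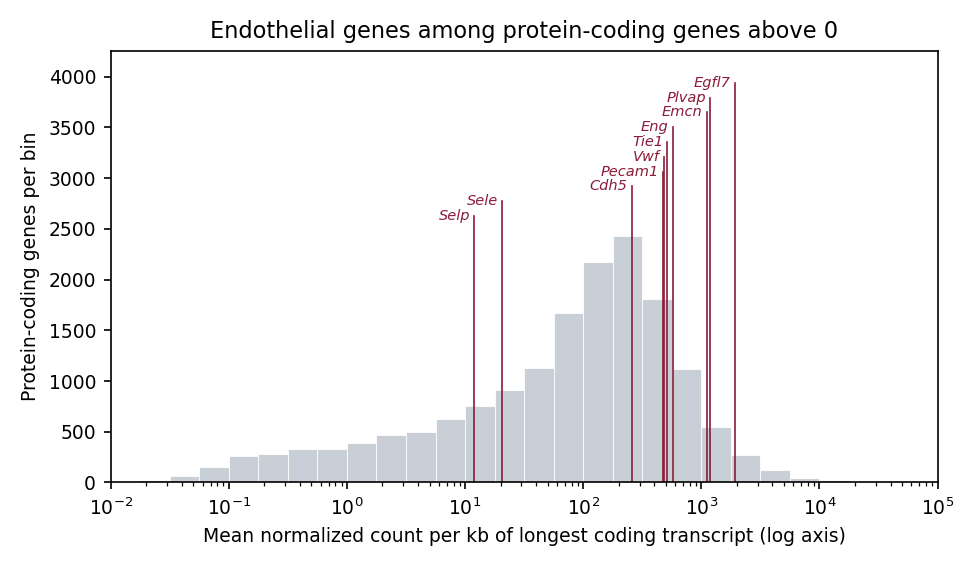
Number of protein-coding genes (grey bars, 16444 genes above 0) by mean normalized count per kb of the longest coding transcript (log axis), with a line for each of the 10 genes. The 8 abundant genes lie right of the peak or within it, and Selp and Sele lie left of it.

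The selectins were the exception among the 10 genes. P-selectin (Selp) is stored in endothelial granules and in platelets, and E-selectin (Sele) is made by endothelium after inflammatory stimulation. Sele had a baseMean of 59.8 and Selp one of 40.8, which over 6 libraries are sums of 359 and 245 normalized counts. Taken as read counts, these sums give a counting error alone of 5.28% for Sele and 6.39% for Selp. For the other 8 genes it is at most 1.28%, and the spread between mice comes on top. Sele was 1.73-fold above Selp per kb. Per kb, Sele ranked above 12.9% and Selp above 7.59% of protein-coding genes of at least 10. Among protein-coding genes above 0 the shares were 26.7% and 22.0%. Together the selectins held 0.528% of the summed baseMean of the 10 genes.

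Both selectins lie on chromosome 1 within 102 kb. Sele is at 164048234 to 164057677 and Selp at 164115264 to 164150026, both on the plus strand. F5, which encodes coagulation factor V, begins 1811 bases after Selp and stood at 146, or 19.7 per kb. These 3 genes were thus at 20.5 per kb or lower, while Selplg, the ligand that leukocytes present to P-selectin, stood at 94.4. A share of 0.875 of the Selp words is found in no other gene on either strand, the lowest of the 10. Of its exon bases, 438 lie opposite the long non-coding gene Gm16548 (baseMean 1.73) and 186 opposite the antisense gene Gm16587 (baseMean 0.306). How many of the shared words come from these overlaps was not tested. For Sele the share of its own words was 1.

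**Figure D3:**
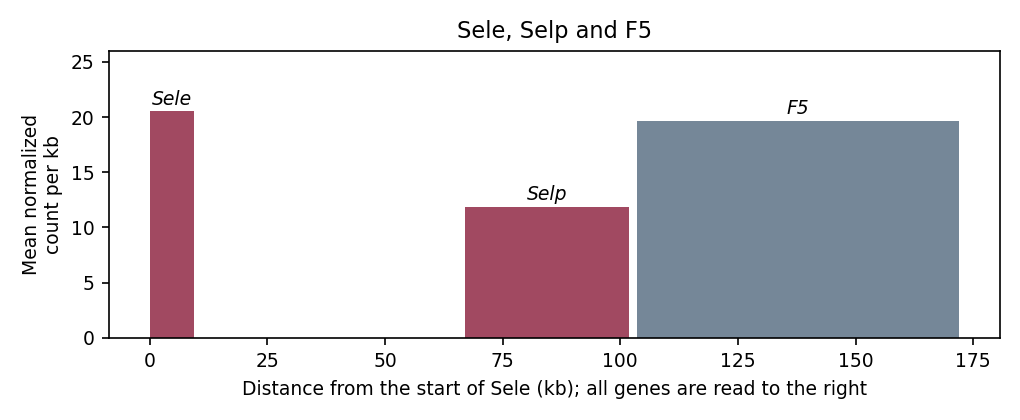
Mean normalized count per kb (bar height, from 0) of Sele, Selp and F5, drawn at their distance from the start of Sele in kb, with bar width as gene length. The heights are 20.5, 11.9 and 19.7.

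Promoter windows, from 250 bases before a start site to 50 after it, were held by RefSeq (GRCm38.p6) for 6 of the 10 genes, Emcn, Eng, Egfl7, Tie1, Selp and Sele, as 8 windows because Egfl7 has 3. The letters AGGAAG, which hold the core that ETS factors bind, were searched on both strands and found in 7 of the 8 windows, in all 6 genes, against 35.4% of 32851 windows of all genes. The exception was the third Egfl7 window. The letters TATAAA were found in the Sele window alone, at position -49 from the start, against 13.6% of all windows. The numbers of CpG were 2 for Emcn, 6 for Eng, 7 for Tie1, 4 for Selp and 3 for Sele, and 5, 8 and 31 for the Egfl7 windows, against a median of 7. These matches describe letters and not sites in use. The second Egfl7 window and those of both selectins are shown, from the gene that led per kb of the longest coding transcript, though not by the other lengths or by baseMean, and from the pair that was lowest by each of them, with AGGAAG, its reverse complement and TATAAA in capitals. They lie at chr2:26583615-26583914, chr1:164115014-164115313 and chr1:164047984-164048283, all on the plus strand.
Egfl7: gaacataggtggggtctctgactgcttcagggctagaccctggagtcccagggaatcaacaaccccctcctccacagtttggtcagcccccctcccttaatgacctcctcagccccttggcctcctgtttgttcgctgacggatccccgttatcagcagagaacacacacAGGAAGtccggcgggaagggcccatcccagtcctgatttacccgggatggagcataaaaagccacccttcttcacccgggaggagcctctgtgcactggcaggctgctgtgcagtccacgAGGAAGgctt
Selp: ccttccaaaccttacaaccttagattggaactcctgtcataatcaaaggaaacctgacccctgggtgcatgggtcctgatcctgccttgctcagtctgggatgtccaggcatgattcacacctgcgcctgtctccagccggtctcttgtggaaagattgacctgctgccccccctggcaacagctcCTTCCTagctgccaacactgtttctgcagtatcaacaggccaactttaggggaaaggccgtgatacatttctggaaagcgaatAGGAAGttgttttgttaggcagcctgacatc
Sele: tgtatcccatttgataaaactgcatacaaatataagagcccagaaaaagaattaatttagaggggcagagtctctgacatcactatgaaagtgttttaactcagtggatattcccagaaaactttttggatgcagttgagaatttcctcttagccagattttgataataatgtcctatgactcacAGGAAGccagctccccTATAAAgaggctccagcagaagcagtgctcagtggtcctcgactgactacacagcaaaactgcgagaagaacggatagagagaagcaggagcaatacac

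Other endothelial genes gave the levels around the 10. Of 22 further endothelial genes, all were above 0, as were 16444 of 19113 protein-coding genes, and their median was 318 per kb. In the range from Cdh5 to Egfl7 lay 14 of them. Cdh5 was above 65.2% of protein-coding genes of at least 10, and Egfl7 above 96.9%. The highest of the 22 was Cd34, a surface sialomucin, at 1356 per kb, and the lowest was Sox7, a transcription factor, at 22.8. Kdr, the main VEGF receptor, stood at 1077 per kb, and Tek, the angiopoietin receptor that pairs with Tie1, at 499, or 0.972 of the Tie1 level. Acvrl1, the receptor that Eng assists, stood at 451, and Eng was 1.26-fold above it.

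Genes that mark kinds of vessel were examined list by list. The 6 arterial genes had a median of 79.0 per kb, from Gja5 at 37.4 to Hey1 at 177. All 6 were below Cdh5, as were 65.2% of protein-coding genes of at least 10. The 5 venous or activation genes had a median of 350 per kb, from Ackr1 at 31.4 to Vcam1, a leukocyte adhesion molecule, at 698. Vcam1 and Icam1, at 557, go with activation and are not particular to veins. The others, Ackr1, Nr2f2 at 231 and Ephb4 at 350, were lower. The other 5 genes of fenestrated or other peripheral capillaries had a median of 46.8, from Car4 at 16.6 to Rgcc at 419.8. All 5 were below Plvap, as were 94.3% of protein-coding genes of at least 10. Barrier capillary genes had a median of 332, from Ocln at 104.5 to Slc2a1 at 3358, though Slc2a1 and Ocln are also made by RPE. Cldn5, an endothelial claudin counted here among the further endothelial genes and not on the barrier list, stood at 1249 per kb, and Plvap at 0.951 of it. How much of the 10 genes came from choroidal and how much from other vessels was not tested. Lymphatic genes had a median of 34.4, from Ccl21a, listed at 0, to Pdpn at 2894, which RPE and other cells make too.

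Markers of other cells in the sample were set beside the 10 genes, because some of the 10 are not confined to endothelium. Platelet and megakaryocyte genes had a median of 31.1 per kb, from Treml1 at 5.93 to Pf4 at 313, and Itga2b, which defines platelets, stood at 29.7. Selp lay within this range and Vwf and Pecam1 above it. The 6 leukocyte and macrophage genes ran from Cx3cr1 at 173 to C1qa at 3633, and the pan-leukocyte gene Ptprc stood at 429, close to Pecam1. The part of platelets and leukocytes in the Pecam1, Vwf and Selp means was not tested.

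Genes of the other cells of the layer were set beside these too. Pericyte and smooth muscle genes had a median of 480 per kb, from Cspg4 at 169 to Rgs5 at 5211. RPE genes had a median of 16816, from Best1 at 33.6 to Ttr at 83745, and Rpe65, the RPE retinoid isomerase, was 49.6-fold above Pecam1 per kb. Melanocyte and pigment genes had a median of 21830, from Tyr at 2116 to Dct at 40484. RPE makes pigment too, so this list does not separate melanocytes from RPE. The 4 rod photoreceptor genes, from Pde6a at 1596 to Sag at 7658, were present although the neural retina had been removed, and had a median of 3808. Whether retinal vessels came with the rods was not tested.

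**Figure D4:**
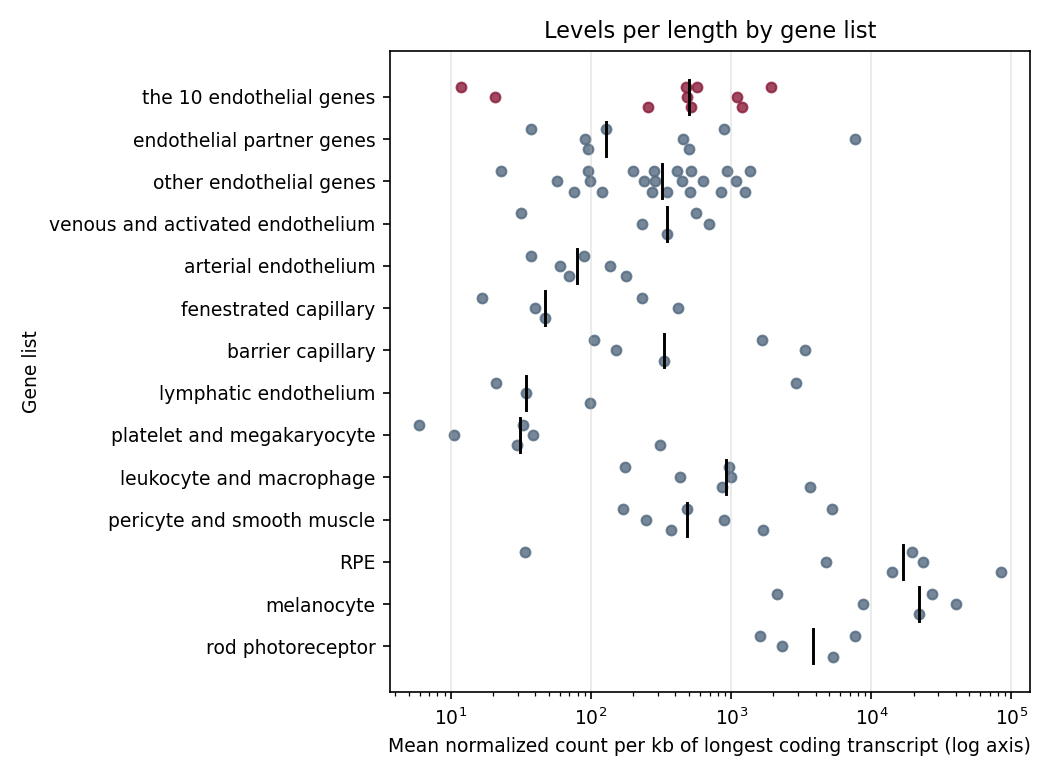
Mean normalized count per kb of the longest coding transcript (log axis) for each gene (points) of the 10 endothelial genes and of 13 other lists, with the median of each list (black lines). The 2 genes listed at 0 enter the medians and are not drawn. The medians run from 31.1 for platelet genes to 21830 for melanocyte and pigment genes, with the 10 endothelial genes at 499.6.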

How the data were processed

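RPE/choroid RNA from 3 Young and 3 Aged mice was sequenced after depletion of ribosomal RNA, with a stranded kit that keeps RNA without a poly(A) tail. Per the labels and the methods, the authors trimmed reads with BBDuk, used STAR against GRCm38 transcripts, obtained TPM with Sailfish, turned it into normalized counts by total count scaling and ran DESeq2. The deposited baseMean is a normalized signal, 1 mean per gene over all 6 libraries, and is the authors' mean, so neither an SD nor an interval over mice can be given. The table has 0 columns of values of a single sample. Its other 5 columns hold the authors' comparison of young and aged tissue (fold change, standard error, score, p-value and adjusted p-value) and were not used, so the ages were not compared here. The comparison planned for the case of values per library could not be fitted.

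Each baseMean was divided by the length in kb of the longest protein-coding transcript in GENCODE M21 (GRCm38, gzip annotation read with Python 3.11.15). TPM is scaled by length, and whether the counts made from it stayed so is not given in the sources used here, so baseMean was checked against transcript length and the values are also given without division. Genes were matched by symbol, and 5 listed genes by a single RefSeq synonym. Uniqueness is the share of a gene's 31-base words found in no other gene's transcripts, on either strand. Percentiles are shares of genes with a lower value. The functions for percentiles, words, motifs and exon length were tested on simulated data. The named genes are the 10 members, and for each other list the genes with the highest and lowest value per kb; further genes on the lists were named after their values were seen, and some listed genes are not reported here. The members and the lists were chosen with earlier results of these data known. Promoters and the miRNA are RefSeq sequences of GRCm38.p6.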

Additional observations from a re-analysis of the deposited data

How the results depend on the processing

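The number of the 10 genes at 100 per kb or more was 8 by all exons together and by coding bases. With no division, 8 had a baseMean of at least 100. The cut lies in the gap between Sele, at 20.5 per kb, and Cdh5, at 256.6, so the count depends little on it. It is also below the median of protein-coding genes above 0, which was 109.8 per kb. The ratio of the highest to the lowest of the 10, 162 per kb, was 128 by all exons together, 207 by coding bases and 105 with no division by length, with Egfl7, Plvap, Emcn or Vwf at the top and Selp at the bottom. The range of the 8 abundant genes, 7.49-fold, was 4.87 by all exons together, 8.40 by coding bases and 4.19 with no division, a set of alternatives chosen after seeing the data. The median percentile of the 10 genes among genes above 0, by baseMean, was 92.1. It was 93.8 among all rows of the table, 88.3 among genes of at least 10, 88.2 among protein-coding genes and 85.2 per kb among protein-coding genes. Their share of the summed baseMean, 0.0993%, was 0.107% without the 10 most abundant genes and 0.113% of the sum over protein-coding genes. Single levels per kb fell for 8 genes and were the same for 2 by all exons together, and rose for all 10 by coding bases, as those lengths are longer and shorter by construction. The rank per kb was the same for 8 of the 10 genes in the first case and for 4 in the second.

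No paired analysis was possible because only 1 mean per gene over all libraries was used. The planned fit of Aged against Young, its DESeq2 and unfiltered alternatives and the fits that leave out 1 library were therefore not run. Low counts limit the selectins more than the other members.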
